A study of Homo sapiens with 6 samples.

Results

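The transcripts described here are the expressed antisense RNAs of cells labelled MB231, a breast cancer line. They were chosen by biotype and level: the deposited table calls them antisense, and their mean over the 6 libraries was at least 2 FPKM, a unit that counts fragments per kilobase of exonic length after scaling for depth. This rule kept 125 of the 5583 antisense genes and of the 58735 genes in the table. Because the rule reads the mean level of all 6 libraries, the levels are a description, whereas the contrast between the groups did not enter it. RNA sequencing gave 3 libraries labelled shNC with the genotype WT and 3 labelled shPAK5 with the genotype PAK5 knockdown, all of the same line, and the design asks what differs between them. The prefix sh in both names is the usual mark of a short hairpin RNA, and shNC is taken as the control from its genotype. Nothing in the labels says whether the replicates came from separate cultures or how many hairpins or clones were used, so every p-value reflects the spread among these 6 libraries alone, and that spread may be technical.

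An antisense RNA is read from the DNA strand opposite to a coding gene. Its exons may pair with the coding transcript where both lie over the same bases, it may start from a shared promoter region and run the other way, or it may lie inside an intron of the coding gene without sharing exon sequence. Such RNAs are known for acting on chromatin or on the stability of the coding RNA near their own locus, and some, such as HOTAIR and AFAP1-AS1, have been studied in breast and other carcinomas. Several host small nucleolar RNAs in their introns, among them ZFAS1, SNHG7 and SNHG12.

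The libraries held 15085168 to 18146091 reads, recovered from FPKM and gene length. PAK5 was at 0 in all 6 libraries, where 3 reads would be 0.0335 to 0.0403 FPKM, so the knockdown could not be checked. Among genes of a mesenchymal state, shNC means were 149 FPKM for VIM, 55.2 for CD44 and 19.2 for AXL, and that of the transcription factor gene ZEB1 was 2.58, but CDH2 and TWIST1 were at 0, FN1 was at 0.0319 and SPARC at 0.174. The epithelial keratins KRT8, KRT18 and KRT19 were at 1006, 874 and 1410 FPKM, EPCAM was at 109 FPKM in shNC and 128 in shPAK5, and CDH1 at 4.64 and 5.84, whereas the epithelial splicing factor gene ESRP1 was at 0.0280 and 0.00754. Among these epithelial genes only ESRP1 was thus near 0, whereas CDH2, TWIST1, FN1 and SPARC of the mesenchymal genes were at or near 0. These levels match only in part the mesenchymal state for which the labelled line is known, and the identity of the cells was not tested. ESR1 was at 0.00143 FPKM in shNC and PGR at 0, whereas ERBB2 was at 9.92 FPKM in shNC and 9.63 in shPAK5. Of 13 markers of fibroblasts, leukocytes and endothelium, COL1A2, PDGFRA and CD3E were at 0, and the highest shNC and shPAK5 means were 0.630 and 0.893 FPKM, both for LYZ. In such bulk libraries fewer cells of a type and less RNA per cell cannot be told apart. The shNC libraries differed more among themselves than the shPAK5 libraries: chi-square per degree of freedom was 9.31 between shNC replicates 1 and 2, 5.36 between 1 and 3 and 3.22 between 2 and 3, against 2.32 to 2.82 in shPAK5. Replicates 1 and 2 lay about equally far from the other replicates of shNC, with SDs over genes of 0.197 and 0.196 on the log2 scale. Without shNC replicate 1 the number of genes passing the test moved from 13 to 937, and without shNC replicate 2 to 5, so counts are given with and without replicate 1.

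Reads of overlapping exons on opposite strands cannot be told apart unless the strand is kept, and whether it was used in counting is not given in the sources used here. Of the 125 antisense genes, 51 had no exonic base covered by an exon of another gene, 76 had less than 10% covered and 6 had over 50% covered, with a median of 5.39% and a highest share of 75.6% for AC024075.3. Exons of 66 antisense genes faced exons of their coding partner, over a median of 172.5 bases and at most 1491 bases, and in 35 they reached coding bases. The stretches below are shown because they are the sequence over which reads of an antisense RNA and of a coding exon coincide. Each lies wholly in coding sequence of the partner and is written 5' to 3' on the strand of the antisense RNA, from the GENCODE 29 transcripts in GRCh38, with no part in capitals because the whole stretch is shared.
FGD5-AS1 against FGD5, minus strand, chr3:14923091-14923175: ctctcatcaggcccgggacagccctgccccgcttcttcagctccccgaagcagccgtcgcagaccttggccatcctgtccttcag
VPS9D1-AS1 against VPS9D1, plus strand, chr16:89711882-89711969: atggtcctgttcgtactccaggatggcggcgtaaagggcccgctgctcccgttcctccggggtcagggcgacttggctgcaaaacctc
AFAP1-AS1 against AFAP1, plus strand, chr4:7774739-7774903: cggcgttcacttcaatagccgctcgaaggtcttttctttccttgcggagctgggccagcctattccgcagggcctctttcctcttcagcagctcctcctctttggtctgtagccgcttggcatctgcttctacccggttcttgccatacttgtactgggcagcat
AC025627.1 against SLC47A1, minus strand, chr17:19560418-19560493: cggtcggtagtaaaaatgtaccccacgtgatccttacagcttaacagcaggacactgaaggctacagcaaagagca

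Most antisense genes of the table were at 0 or below 1 FPKM. Of the 5583, 2787 were at 0 in all 6 libraries, 2507 were above 0 and below 1 FPKM, and 164 were from 1 to 2 FPKM, so that 2.24% reached 2 FPKM against 44.1% of protein-coding genes. Among the 125, 81 were from 2 to 5 FPKM, 26 from 5 to 10 and 18 at 10 or above. Their median level was 3.59 FPKM and they ranged from 2.01 to 51.7 FPKM. The 5 most abundant held 22.0% of the summed level and the 12 most abundant held 35.8%. Together the 125 took 0.125 to 0.130% of the reads of a library, and their summed level was 749, 758 and 750 FPKM in shNC and 778, 768 and 768 FPKM in shPAK5. They lay on 21 chromosomes and had 143 to 7820 exonic bases, with a median of 966.

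Many values rested on few reads. The mean over the libraries was under 50 reads for 47 of the 125, the median was 70.2 reads, and single values ran from 2 reads for AC006026.3 to 3108 for FGD5-AS1. The coefficient of variation between shNC libraries had a median of 12.4%, with 22.3% for those under 50 reads and 9.68% for the others. At the threshold itself, AC010761.1, AP000759.1 and AL161421.1 were just above 2 FPKM, with 24 to 38, 7 to 20 and 26 to 49 reads, while AC023090.1, AC040169.1 and ZSCAN16-AS1 were just below it at 2.00, 1.96 and 1.95 FPKM.

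The antisense genes fell into classes by their place against the opposite coding gene with the longest overlap, called the partner here. The classes follow the outer ends of the genes, so the starts of a head to head pair may lie far apart. Of the 125, 35 (28%) lay inside the span of the partner, 35 (28%) overlapped it at the 5' ends (head to head), 25 (20%) overlapped it at the 3' ends (tail to tail), 5 (4%) held the partner and 25 (20%) overlapped no opposite coding gene. Among the 5458 antisense genes below 2 FPKM, 55.1% lay inside the partner, 15.3% were head to head and 14.3% tail to tail. The start of an opposite coding gene lay within 1000 bases of the start of 56 of the 125 (44.8%), against 19.8% of those below 2 FPKM. It did so for 12 of the 25 without an overlap, among them OTUD6B-AS1, 7 bases from the start of OTUD6B, and LHX1-DT, 124 bases from that of LHX1, a homeobox transcription factor. In all, 15 of the 125 overlapped more than 1 opposite coding gene and 6 also overlapped a coding gene on their own strand.

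RefSeq promoter windows (GRCh38.p14), from 250 bases before to 50 bases after a start, could be matched by symbol for 37 of the 125, with 47 windows. They held a median of 28 CpG, against 14 over all 35116 windows. Searched on both strands, with overlapping matches allowed, TATAAA was in 4.26% of the windows against 11.5% of all, CCAAT in 31.9% against 34.6%, and GGGCGG in 57.4% against 45.0%. The 21 windows of transcripts with an opposite coding start within 1000 bases had a median of 30 CpG and GGGCGG in 71.4%. The other 26 had 19.5 CpG and GGGCGG in 46.2%. That distance was taken from the GENCODE start of the gene, which for HOXB-AS3 lay 46328 bases from the RefSeq start. Windows near an opposite coding start may thus be among the 26, and a gene with several windows, such as NR2F1-AS1, counts more than once. A CpG-rich window, of a small nucleolar RNA host, and a CpG-poor window, of a transcript inside the span of a coding gene, are shown for comparison, with each match to the letters searched, or to their reverse complement, in capitals. A match is a description of letters only.
SNHG7, minus strand, chr9:136728135-136728434, 43 CpG: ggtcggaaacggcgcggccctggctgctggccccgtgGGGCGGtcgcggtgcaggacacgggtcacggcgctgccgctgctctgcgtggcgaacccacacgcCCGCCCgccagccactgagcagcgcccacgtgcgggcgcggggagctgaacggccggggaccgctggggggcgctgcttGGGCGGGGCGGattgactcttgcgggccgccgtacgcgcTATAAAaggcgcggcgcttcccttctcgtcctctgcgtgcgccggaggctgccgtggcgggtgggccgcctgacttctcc
XXYLT1-AS2, plus strand, chr3:195147621-195147920, 9 CpG: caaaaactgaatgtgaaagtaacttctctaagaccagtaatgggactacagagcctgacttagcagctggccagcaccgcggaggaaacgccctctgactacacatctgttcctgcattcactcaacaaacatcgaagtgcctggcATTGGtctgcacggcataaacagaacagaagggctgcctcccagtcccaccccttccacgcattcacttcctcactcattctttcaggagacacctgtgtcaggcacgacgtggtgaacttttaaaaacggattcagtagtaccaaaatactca

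Among the most abundant antisense RNAs, AF124730.1 on chromosome 21 (29182027 to 29187795) was at 51.1, 48.6 and 40.7 FPKM in shNC and at 56.5, 60.2 and 53.3 FPKM in shPAK5. All 3 shPAK5 libraries were above all 3 shNC libraries. It overlaps no coding gene, and the nearest opposite coding start, of the transcription factor gene BACH1, is 6276 bases away. The change was 0.27 ± 0.08 (SE) on the log2(FPKM + 1) scale, which did not pass the test (limma, adjusted p = 0.215), and 0.18 without shNC replicate 3 (limma adjusted p = 0.452).

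AC099850.3, which lies inside PRR11, a gene of the cell cycle, was at 44.4, 41.9 and 41.7 FPKM in shNC and at 47.7, 42.7 and 40.7 FPKM in shPAK5. The groups overlapped, and 30.2% of its exonic bases were covered by exons of another gene. FGD5-AS1 was at 33.4, 28.7 and 31.1 FPKM in shNC and at 33.4, 33.1 and 33.2 FPKM in shPAK5, with 2473 to 3108 reads. Its groups overlapped too, and its partner FGD5, an exchange factor for small GTPases known from endothelium, had a mean of only 0.311 FPKM, so that the antisense RNA was 103 times as abundant per length.

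ZFAS1, a host of small nucleolar RNAs, was at 23.8, 16.5 and 21.0 FPKM in shNC and at 24.9, 25.6 and 25.2 FPKM in shPAK5. Every shPAK5 library was above every shNC library, and the lowest shNC value was replicate 2. The change was 0.31 ± 0.11 (SE) on the log2(FPKM + 1) scale (limma adjusted p = 0.243) and 0.42 without shNC replicate 1 (limma adjusted p = 0.0435), but 0.17 without shNC replicate 2 (limma adjusted p = 0.367). Exons of other genes covered 46.9% of the exonic bases of ZFAS1.

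SNHG7 was at 17.2, 17.2 and 18.7 FPKM in shNC and at 18.0, 16.2 and 17.3 FPKM in shPAK5, with overlapping groups. Its exons, 31.4% of whose bases other genes cover, face those of FAM69B over 1094 bases. FAM69B was at 2.07, 2.62 and 2.53 FPKM in shNC and at 1.96, 1.73 and 1.89 FPKM in shPAK5. All shPAK5 values of this partner were below all shNC values, with a change of -0.25 ± 0.09 (SE) on the log2(FPKM + 1) scale (limma adjusted p = 0.228).

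Of the 12 most abundant, 5 more are given by their means. AL365181.3, inside BCAN, the gene of the brain proteoglycan brevican, stood at 15.9 ± 1.23 FPKM in the shNC group against 13.8 ± 0.952 FPKM in the other (SD, n = 3), and its groups overlapped. AC006329.1 was at 14.6 ± 1.21 and 16.0 ± 0.712 FPKM, AC010503.4, inside DENND1C, at 13.3 ± 2.50 and 14.6 ± 1.79 FPKM, and the groups of both overlapped. AC119427.1, head to head with the gene of ladinin LAD1, was at 14.9 ± 1.41 and 14.4 ± 1.08 FPKM, and FAM83A-AS1 was at 13.4 ± 1.22 and 13.1 ± 0.409 FPKM, while their partners LAD1 and FAM83A stood at 112 and 103 FPKM in shNC. None of these 5 passed the test.

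**Figure D1:**
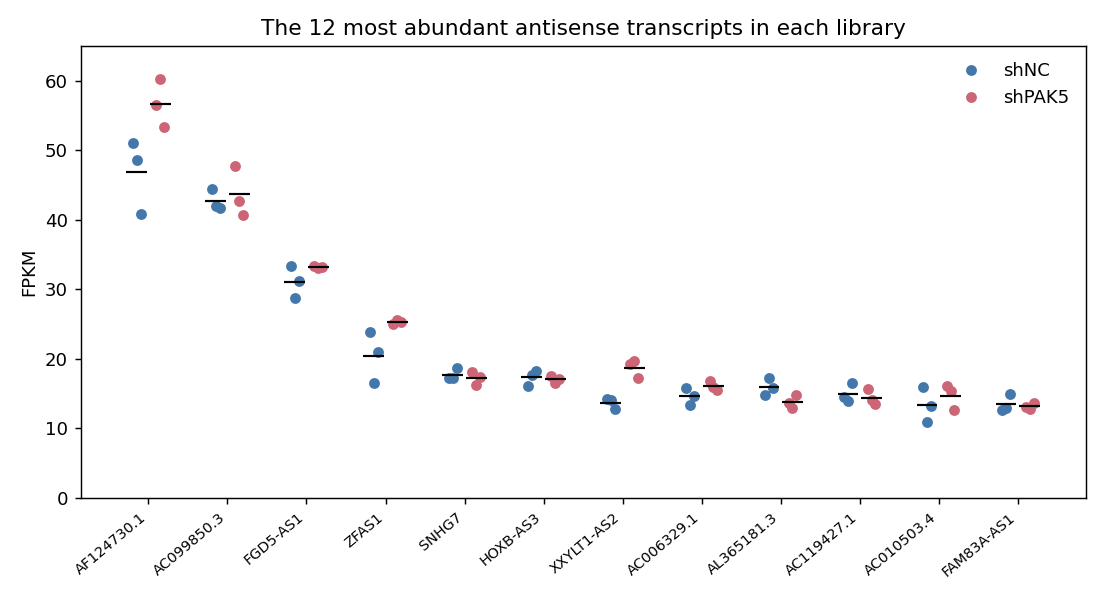
FPKM (linear axis from 0) of the 12 most abundant antisense transcripts, with 1 point per library, shNC in blue, shPAK5 in red and a black line at each group's mean. AF124730.1, ZFAS1 and XXYLT1-AS2 have all 3 shPAK5 points above all 3 shNC points, and the groups of the other 9 overlap.

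The HOX clusters, which encode the transcription factors that set position along the body axis, gave 5 of the 125. HOXB-AS3 (48549630 to 48606414 of chromosome 17, plus strand) was classed head to head with HOXB3 (48548870 to 48604912, minus strand). The GENCODE start of HOXB-AS3 nevertheless lies near the 3' end of HOXB3, far from the start of that gene. HOXB-AS3 was at 16.1, 17.6 and 18.2 FPKM in shNC and at 17.5, 16.4 and 17.1 FPKM in shPAK5. HOTAIR, an RNA of the HOXC cluster known for binding chromatin-modifying complexes, was at 3.07, 2.59 and 3.09 FPKM in shNC and at 2.50, 2.48 and 3.03 FPKM in shPAK5. In both the groups overlapped. HOXA-AS2 was at 3.71, 3.88 and 3.80 FPKM against 3.25, 3.20 and 3.71 FPKM, and HOXA11-AS at 3.32, 3.49 and 3.32 FPKM against 3.77, 3.34 and 3.11 FPKM. Exons of other genes cover 59.3% of the exonic bases of HOXA11-AS, and both it and HOXA-AS2 had overlapping groups. HOXB-AS2, at 3.04, 3.60 and 3.41 FPKM in shNC and 2.74, 2.73 and 2.67 FPKM in shPAK5, was lower in all 3 shPAK5 libraries than in any shNC library (limma adjusted p = 0.215, and 0.0438 without shNC replicate 1).

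No antisense RNA passed a Benjamini-Hochberg adjusted p of 0.05 between shPAK5 and shNC. The test was limma on log2(FPKM + 1), two-sided, over the 11237 genes that averaged 1 FPKM or more, which all 125 did by the rule, and the smallest adjusted p was 0.0718 for XXYLT1-AS2. Of all genes tested, 13 (0.116%) passed. limma-voom on the recovered reads called 0 of the 125 against 1.04% of all genes, with a smallest adjusted p of 0.0577. At an unadjusted p of 0.05, limma gave 28 of the 125 (22.4%), against 17.0% of all genes. Of these, 12 of the 125 were higher and 16 of the 125 lower in shPAK5, against 9.52% and 7.46% of all genes. limma-voom gave 16 of the 125, a smaller share than the 19.1% of all genes, whereas the share in limma was larger. The groups did not overlap for 24 of the 125 (19.2%), against 23.1% of all genes, with 12 higher and 12 lower against 12.6% and 10.5%.

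The changes were small in both directions. They ranged from -0.43 to 0.50 on the log2(FPKM + 1) scale, with a median of 0.02 against 0.00 for all genes, and 66 of the 125 were above 0. The median size of the change was 0.12, against 0.08 for all genes. For 102 of the 125 (81.6%), against 95.2% of all genes, the 95% interval excluded changes of FPKM + 1 above 1.5-fold in either direction. For 124 of the 125 it excluded changes of FPKM + 1 above 2-fold. At levels of a few FPKM the same limits stand for larger folds of FPKM itself. Beside these wider intervals stand the low reads given above, and their part in the size of the changes was not tested.

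Without shNC replicate 1, 12 of the 125 (9.6%) passed limma at an adjusted p of 0.05, against 8.34% of all genes. With any other single library left out, 0 of the 125 passed. The 5 that were higher in shPAK5 were ZFAS1, XXYLT1-AS2, AC024896.1, OTUD6B-AS1 and AC093673.1. The 7 that were lower were VPS9D1-AS1, AL513165.1, AC027307.2, AC148477.1, AC025627.1, BX470102.1 and HOXB-AS2. The groups then did not overlap for 47 of the 125 (37.6%), against 49.6% of all genes, and 39 (31.2%) had an unadjusted p under 0.05, against 30.8%.

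**Figure D2:**
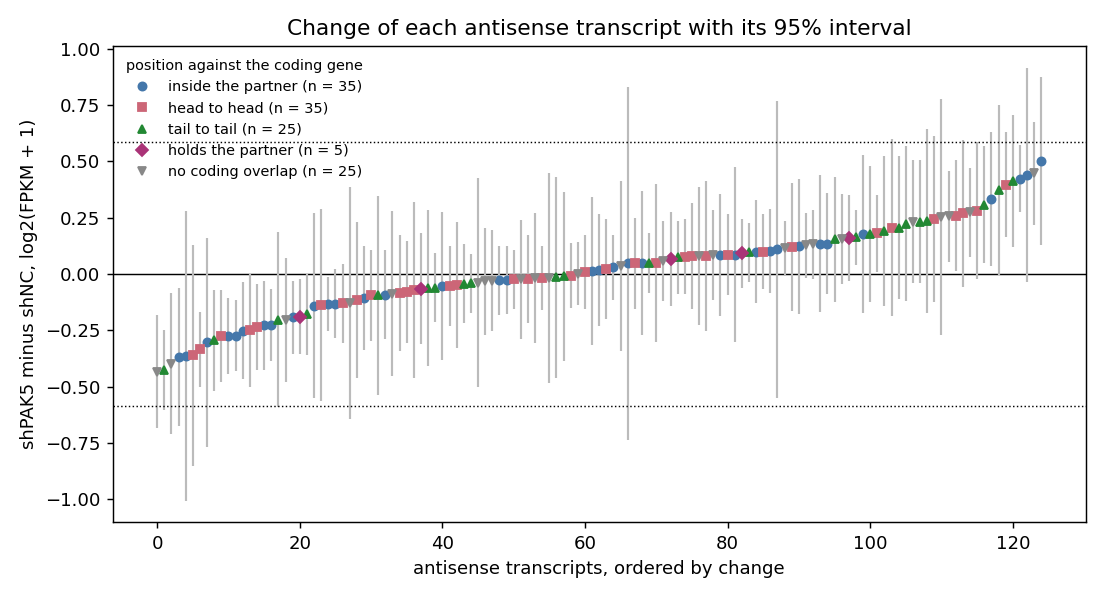
Change of each of the 125 antisense transcripts (points, coloured by position against the coding gene) on the log2(FPKM + 1) scale, shPAK5 minus shNC, ordered by size, with grey bars for the 95% interval from limma and dotted lines at a 1.5-fold change of FPKM + 1. The points run from -0.43 to 0.50 and each of the 5 classes of position has points on both sides of 0.

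XXYLT1-AS2 on chromosome 3 (195147871 to 195152790, plus strand) was at 14.2, 14.0 and 12.8 FPKM in shNC and at 19.3, 19.6 and 17.2 FPKM in shPAK5, from 167 to 274 reads. All 3 shPAK5 libraries were above all 3 shNC libraries. The ratio of the means was 1.37 and the change 0.42 ± 0.06 (SE) on the log2(FPKM + 1) scale, with an adjusted p of 0.0718 in limma. With the genes tested limited to a mean of at least 2 FPKM, where 30 genes (0.316%) passed, its adjusted p in limma was 0.0479, and without shNC replicate 1 it was 0.0322. It lies wholly inside XXYLT1, which encodes a xylosyltransferase that extends sugars on Notch, and shares no exonic base with any gene. XXYLT1 itself was at 2.72, 2.75 and 2.79 FPKM in shNC and at 2.96, 2.83 and 2.45 FPKM in shPAK5, with overlapping groups.

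The largest change above 0 was that of AC005034.3, inside GCFC2, at 3.65, 2.42 and 2.54 FPKM in shNC and 5.71, 4.19 and 3.60 FPKM in shPAK5. The lowest shPAK5 library lay below the highest shNC library, so the groups overlapped, and the change was 0.50 ± 0.16 (SE) on the log2(FPKM + 1) scale (limma adjusted p = 0.219). AC093673.1, whose start is 585 bases from that of ZYX, the gene of the focal adhesion protein zyxin, was at 4.93, 3.49 and 3.89 FPKM in shNC and 5.70, 6.02 and 6.03 FPKM in shPAK5. Its groups did not overlap, with a change of 0.45 ± 0.10 (SE) (limma adjusted p = 0.158, and 0.0287 without shNC replicate 1). AC005476.2, head to head with SIPA1L1, a gene of a GTPase-activating protein for Rap, was at 1.52, 1.59 and 1.91 FPKM in shNC and 2.15, 2.91 and 2.52 FPKM in shPAK5, again without overlap. AC090515.4, tail to tail with the deubiquitinase gene MINDY2, and AC138696.2, inside ZNF696, completed the 6 largest changes above 0 with 6.91 ± 1.39 against 9.44 ± 0.981 FPKM and 5.48 ± 1.56 against 7.76 ± 1.86 FPKM (SD, n = 3). Both had overlapping groups and at most 75 and 35 reads in a library, and none of these 6 changes passed the test on all 6 libraries.

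AL513165.1 had the largest change below 0. It was at 11.6, 14.0 and 15.4 FPKM in shNC and 8.58, 10.6 and 10.3 FPKM in shPAK5, from 45 to 74 reads. The groups did not overlap, and the change was -0.43 ± 0.11 (SE) on the log2(FPKM + 1) scale (limma adjusted p = 0.177, and 0.0334 without shNC replicate 1). BX470102.1, tail to tail with S100A6, the gene of a calcium-binding protein, was at 3.76, 4.38 and 3.96 FPKM in shNC and 2.49, 3.00 and 2.75 FPKM in shPAK5. It was lower in every shPAK5 library, by -0.43 ± 0.08 (SE), with an adjusted p of 0.122 in limma and 22 to 39 reads. S100A6 was at 739 ± 32.9 and 746 ± 1.29 FPKM (SD, n = 3), the most abundant partner, so that the antisense RNA stood at a ratio of 0.00457 to it.

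AC148477.1 was at 4.07, 6.26 and 5.67 FPKM in shNC and 4.05, 3.23 and 4.04 FPKM in shPAK5. TONSL-AS1, inside TONSL, a gene of the repair of stalled replication forks, was at 4.40, 4.59 and 6.45 FPKM in shNC and 3.99, 3.18 and 4.03 FPKM in shPAK5. Neither transcript's groups overlapped, with at most 50 and 46 reads. AL355388.1, inside the exchange factor gene ARHGEF2, and AC005520.2, head to head with ELMSAN1, were at 4.22 ± 0.966 against 3.26 ± 1.77 FPKM and at 2.50 ± 0.743 against 1.74 ± 0.734 FPKM (SD, n = 3), with overlapping groups. No change among these 4 passed the test.

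VPS9D1-AS1 lies wholly inside VPS9D1 on chromosome 16 (89711856 to 89718165), and their exons share 518 bases. It was at 12.4, 14.5 and 14.8 FPKM in shNC and at 11.4, 10.7 and 11.7 FPKM in shPAK5. Every shPAK5 library was below every shNC library, with a ratio of the means of 0.812 and a change of -0.28 ± 0.07 (SE) on the log2(FPKM + 1) scale (limma adjusted p = 0.188, and 0.0312 without shNC replicate 1). VPS9D1 was at 4.35 ± 0.266 and 4.34 ± 0.119 FPKM (SD, n = 3). Other genes cover 29.5% of the exonic bases of VPS9D1-AS1.

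In 43 of the 97 pairs whose partner was above 0 the antisense RNA had the higher FPKM. The rule asked at least 2 FPKM of the antisense RNA and set no level for the partner. Shares, ratios and correlations of level thus describe these pairs only. The median ratio of antisense RNA to partner was 0.618, with 1.39 for those inside the partner, 0.501 head to head and 0.391 tail to tail. The partners ABHD16B, AC073896.1 and AC008764.4 were at 0. Exons of AL118506.1 face 1491 bases of ABHD16B, its whole span. How reads over shared exons were counted is not given, so a value of 0 does not show silence. Over the 80 pairs with both genes at 1 FPKM or more, Pearson's r of the log2 levels was -0.06. The pairs share the libraries and in part exonic sequence, and genes are not independent replicates.

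**Figure D3:**
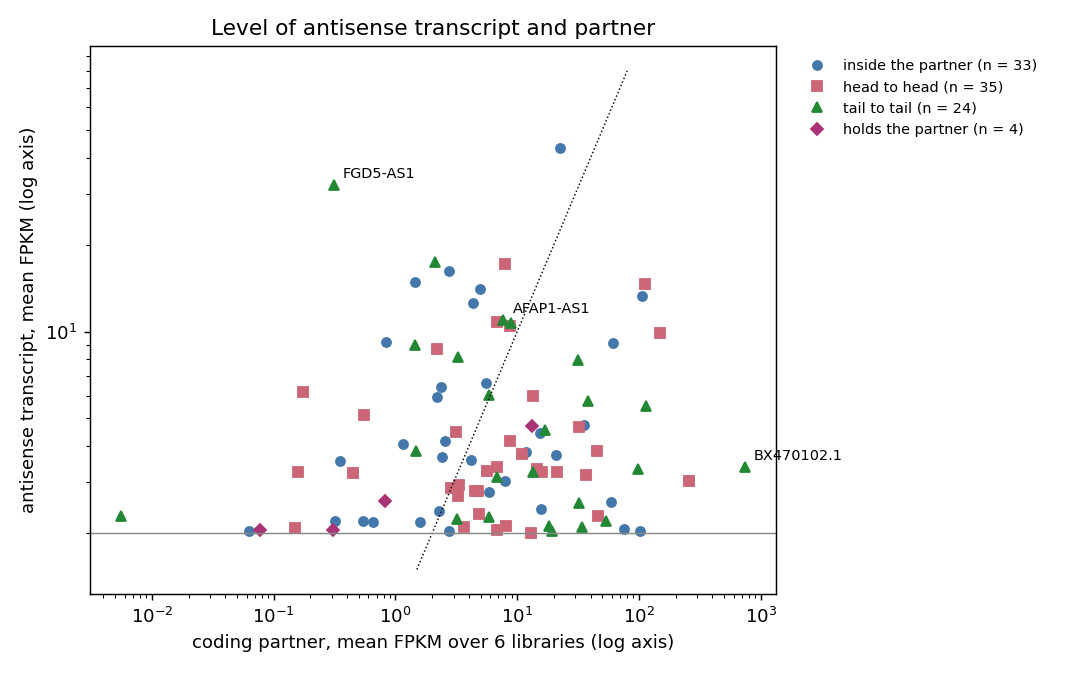
Mean FPKM over the 6 libraries of the antisense transcript against that of its coding partner (log axes) for the 97 pairs whose partner was above 0, of which 1 is not drawn, coloured by position, with a dotted line at equal levels and a grey line at the 2 FPKM of the rule. FGD5-AS1 lies far above FGD5 and BX470102.1 far below S100A6.

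None of the 98 partners, of which 78 were tested, passed limma at an adjusted p of 0.05, against the 0.116% of all genes, and none passed limma-voom. At an unadjusted p of 0.05, 8 of the 78 (10.3%) were called by limma and 10 by limma-voom, against 17.0% and 19.1% of all genes. The smallest adjusted p in limma was 0.207, for AFAP1. Without shNC replicate 1, LIF, FAM69B and AFAP1 passed, against 8.34% of all genes.

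Whether an antisense RNA and its partner changed unequally was tested in limma on the difference of their log2 values, over all 190 antisense pairs of the table with both means at 1 FPKM or more. None passed an adjusted p of 0.05 (0% of the pairs), with a smallest of 0.180 for BX470102.1, and 18 (9.47%) had an unadjusted p under 0.05, 12 of them among the 80 pairs of the expressed antisense RNAs. limma-voom called 1 pair (0.526%), AFAP1-AS1 and AFAP1, and gave 8.95% of the 190 pairs an unadjusted p under 0.05. Without shNC replicate 1, 26 pairs (13.7%) had an unadjusted p under 0.05 in limma.

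AFAP1-AS1 on chromosome 4 (7754090 to 7778928) is tail to tail with AFAP1, whose product is an adaptor of actin filaments that binds Src. The antisense RNA was at 10.2, 10.9 and 9.76 FPKM in shNC and at 11.6, 11.8 and 11.6 FPKM in shPAK5. AFAP1 was at 7.88, 8.41 and 8.37 FPKM in shNC and at 7.10, 7.24 and 7.21 FPKM in shPAK5. In all 3 shPAK5 libraries the antisense RNA was above, and AFAP1 below, every shNC library. The changes were 0.16 ± 0.05 and -0.17 ± 0.05 (SE) on the log2(FPKM + 1) scale, with adjusted p of 0.220 and 0.207 in limma, and their difference was 0.33 ± 0.10 (limma adjusted p = 0.372, and 0.0359 in limma-voom). Their exons share 523 bases, of which 1 stretch is printed above, and 7.70% of the exonic bases of AFAP1-AS1 are covered by exons of other genes. Leaving out shNC replicate 1 gave a difference of 0.36 (limma adjusted p = 0.307).

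AC025627.1 was likewise placed on the other side of its partner. It was at 3.67, 4.73 and 4.69 FPKM in shNC and at 3.09, 3.72 and 3.27 FPKM in shPAK5, and 1 shPAK5 library lay above the lowest shNC library. SLC47A1, which encodes an exporter of organic cations, was at 1.37, 1.35 and 1.36 FPKM in shNC and at 1.52, 1.66 and 1.52 FPKM in shPAK5, without overlap. The difference of the changes was -0.41 ± 0.12 (SE) (limma adjusted p = 0.323). For XXYLT1-AS2 and BX470102.1 the differences were 0.43 ± 0.10 and -0.44 ± 0.09 (limma adjusted p = 0.264 and 0.180), with the partner nearly level between the groups. NRAV, an RNA named for its effect on the antiviral response, and DYNLL1, the dynein light chain gene around it, were both lower in shPAK5: 9.51, 9.56 and 9.76 against 8.23, 8.70 and 9.10 FPKM for NRAV, and 65.4, 63.1 and 62.8 against 56.1, 60.7 and 58.6 FPKM for DYNLL1. In neither did the groups overlap, the 2 genes share no exonic base, and the difference of their changes was -0.01 ± 0.08 (SE). The pair was named after its values were seen, and whether intronic reads of DYNLL1 were counted for NRAV was not tested. Neither passed limma, with adjusted p of 0.261 for NRAV and 0.232 for DYNLL1.

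**Figure D4:**
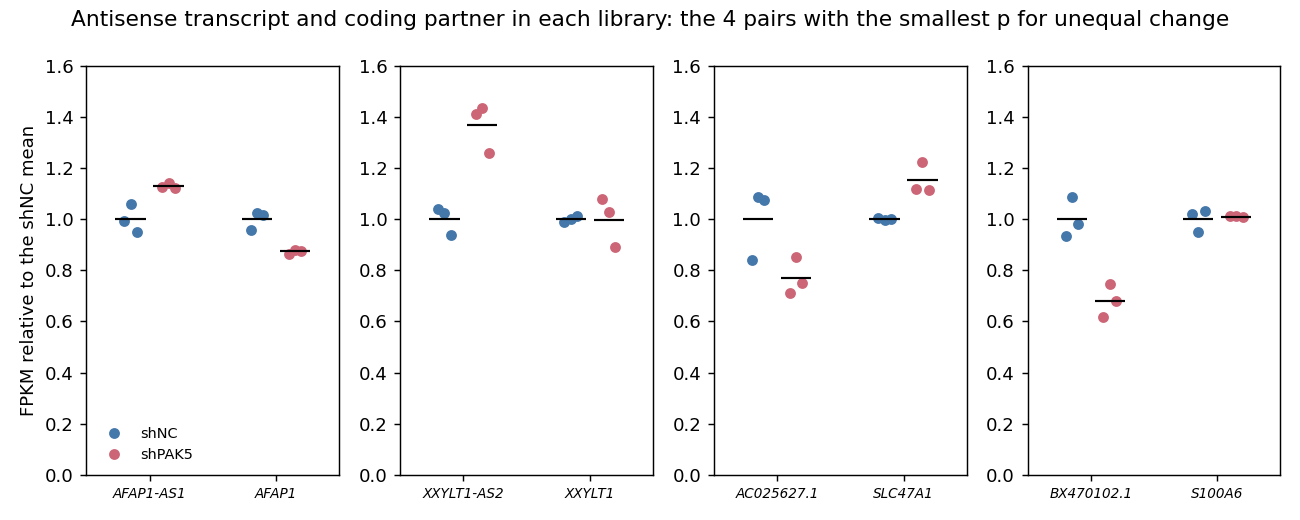
FPKM of the antisense transcript and its coding partner in each library, divided by the shNC mean of the gene, for the 4 pairs with the smallest p for unequal change, with shNC in blue, shPAK5 in red and a black line at each group's mean. AFAP1-AS1 and AFAP1 lie on opposite sides of their shNC libraries, whereas XXYLT1 and S100A6 overlap between the groups.

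Over the 80 pairs, the changes of antisense RNA and partner had a Pearson's r of 0.22 and a Spearman's correlation of 0.20, and 46 pairs (57.5%) had the same sign. Pearson's r was 0.38 over the 27 pairs with the antisense RNA inside the partner, 0.08 over 30 head to head and 0.21 over 22 tail to tail. It was 0.25 over the 42 pairs whose antisense RNA had under 10% of its exonic bases covered and 0.19 over the other 38. These values describe pairs that share 6 libraries and, in part, exonic sequence, over which reads may have been mixed. Intronic reads of the partner may enter the pairs with under 10% covered as well. The median size of the change was 0.13 for the antisense RNAs and 0.06 for the partners, on the log2(FPKM + 1) scale.

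**Figure D5:**
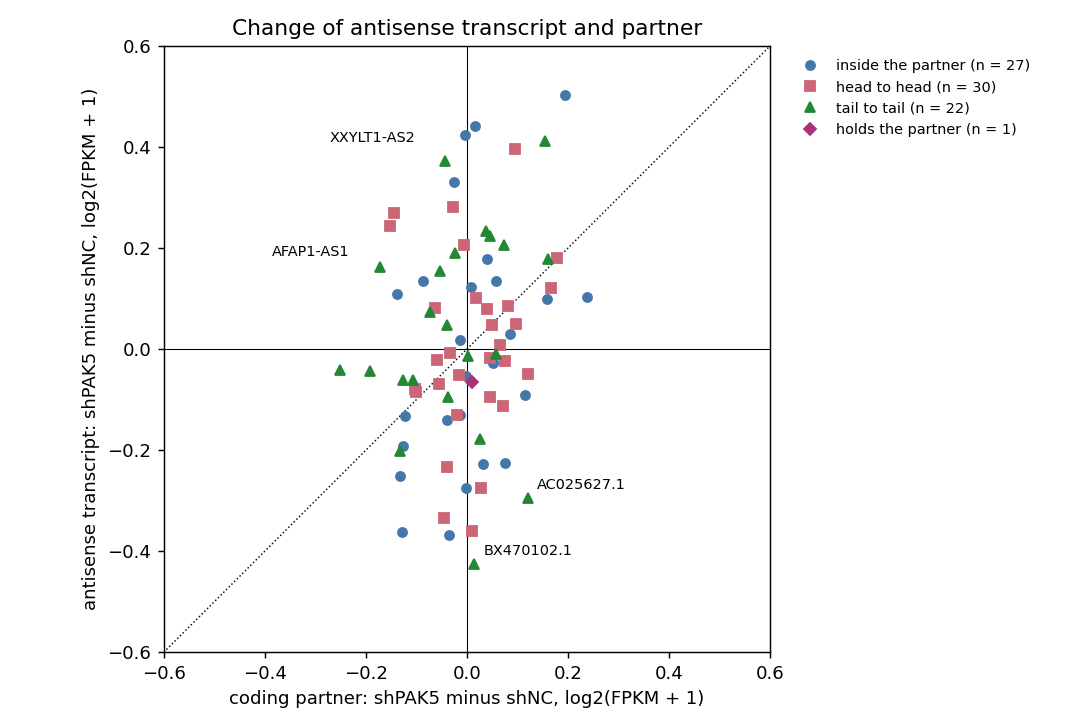
Change of the antisense transcript (vertical axis) against that of its coding partner (horizontal axis), both shPAK5 minus shNC on the log2(FPKM + 1) scale, for the 80 pairs with both means at 1 FPKM or more, coloured by position, with a dotted line at equal change. Pearson's r over all points was 0.22, and AFAP1-AS1 and AC025627.1 lie in the 2 quadrants of opposite sign.

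A list of 78 antisense and related RNAs known from studies of cancer was compared with the same data. It was chosen with earlier results of these data known, so its shares are a description and not an independent comparison. Of these, 72 were in the table, 32 were tested, 9 were among the 125 and 10 were at 0 in all libraries. Of the 32 tested, 14 were not antisense by biotype. None of the 32 passed limma or limma-voom at an adjusted p of 0.05, against 0.116% and 1.04% of all genes. At an unadjusted p of 0.05 limma gave 9 (28.1%), against 17.0% of all genes, and 7 of them (21.9%) were higher in shPAK5, against 9.52%. DANCR, EBLN3P, OIP5-AS1, FOXD2-AS1 and PSMB8-AS1 were among the 9 but were not antisense by biotype, and of these only DANCR was lower in shPAK5. Of the 32 changes, 13 (40.6%) were above 0, against 51.3% of all genes, and their median was -0.02 against 0.00. Without shNC replicate 1, 4 of the 32 (12.5%) passed limma, against 8.34% of all genes: ZFAS1, VPS9D1-AS1, OIP5-AS1 and PSMB8-AS1, the last at 1.09 FPKM on average. THAP9-AS1, head to head with THAP9, a gene derived from a transposase, was at 5.74, 4.93 and 4.55 FPKM in shNC and 5.68, 5.29 and 4.52 FPKM in shPAK5, with overlapping groups.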

How the data were processed

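The data are RNA sequencing of 3 shNC and 3 shPAK5 libraries, whose groups and numbers come from the sample titles. The kit was NEBNext Ultra, per the labels. The table of FPKM values was made and deposited by the authors, and neither an aligner nor a counting tool is named in the labels. The submitters' processing notes name mm10, a mouse build, but all 58735 gene IDs, coordinates and exonic lengths equal those of human GENCODE 29 (GRCh38), which was used here.

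FPKM times length gave whole reads for 100% of values, within 0.001 reads or 1 part per 1000000 above 1000 reads. limma 3.58.1 in R 4.3.3 (lmFit, eBayes with trend) was run on log2(FPKM + 1) over the 11237 genes that averaged 1 FPKM or more, with Benjamini-Hochberg adjustment over all of them. Fold changes on this scale understate the change of low genes. Overlaps of exons came from the annotation. The members, the partner rule and the list were chosen with earlier results of these data known. Named genes were the 12 most abundant antisense RNAs, the 6 largest changes each way, the 3 nearest the threshold on each side, members of the list, and the 4 pairs with the smallest p. NRAV, HOXB-AS2, OTUD6B-AS1, LHX1-DT, AC006026.3, AC024075.3, AC024896.1 and AC027307.2 lie outside this rule and were named after their values were seen. Alternatives covered the pseudocount, filters, quantile normalization, limma-voom, a replicate block, the rule's threshold, exonic overlap, the choice of partner and each library left out. The partner of 1 member is not reported here. The calculations were tested on simulated data. Figures were drawn with matplotlib 3.10.9.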

Additional observations from a re-analysis of the deposited data

How the results depend on the processing

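The number of genes passing limma was 13, and it moved to 7 with no filter, 30 with a filter at a mean of 2 FPKM, 20 with quantile normalization, 117 in limma-voom, 2 with the replicate block and 2 to 937 when single libraries were left out, the highest without shNC replicate 1. The count of antisense RNAs passing was 0 and became 1 with the filter at 2 FPKM and 12 without shNC replicate 1. With any other single library left out it stayed at 0. It was 0 under the other alternatives, with a threshold of 1 or 5 FPKM for the rule and with low exonic overlap only. The count of partners was 0, and 0 to 3 with single libraries left out. The count of pairs was 0, and 1 in limma-voom. The antisense RNAs without overlap of the groups were 24, and 47 without shNC replicate 1, and the RNAs of the cancer list passing were 0, and 4 without it, both alternatives chosen after seeing the data. Libraries with the same replicate number shared little of their deviation from the group mean, with correlations of 0.0654, -0.0239 and 0.00898. Whether they were paired by design is not known, and the block called 0 antisense RNAs. HOXA11-AS changed sign under quantile normalization, at -0.0123. With single libraries left out, the sign also changed for AC099850.3 (-0.0331 to 0.0797), HOXB-AS3 (-0.0711 to 0.0115), AC119427.1 (-0.108 to 0.0179), FAM83A-AS1 (-0.0702 to 0.0413), THAP9-AS1 (-0.0416 to 0.0994), HOXA11-AS (-0.0491 to 0.0577), AP000759.1 (-0.256 to 0.182) and AL161421.1 (-0.111 to 0.144), all in log2(FPKM + 1). The change of AC138696.2 fell from 0.44 to 0.25 without shNC replicate 1, that of TONSL-AS1 moved from -0.37 to -0.22 without shNC replicate 3, and that of AL355388.1 from -0.36 to -0.06 without shPAK5 replicate 1. The cause was not tested. Of the other values of single transcripts under these alternatives, 374 kept their direction and side of the threshold, and 9 passed it where the value given first did not, 8 of them without shNC replicate 1. Depth limits the transcripts under 50 reads most.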
